A study of Mus musculus with 17 samples.

Results

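The regions described here gained a WT1 peak after podocyte injury in 2 mouse models. They were selected on the presence of peaks, with no use of peak height: peaks of the 5 deposited lists were merged where they overlapped or touched, and a region was kept when it had a peak in injured glomeruli and in injured podocytes at day 9, and none in the uninjured glomeruli or uninjured podocytes. A day 14 peak was allowed and not required. This rule kept 820 of 41766 merged regions (1.96%). Presence and absence in those 4 lists is therefore a description of how the regions were chosen and not a finding.

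WT1 is a zinc-finger transcription factor that binds GC-rich DNA. In the adult kidney its expression is largely limited to podocytes and to the parietal cells that line Bowman's capsule. In podocytes it directly binds many of the genes that build the slit diaphragm, the actin cytoskeleton of the foot processes and the glomerular basement membrane, and mutations of WT1 cause nephrotic syndrome. Adriamycin (doxorubicin, ADR in the labels) is toxic to podocytes and causes proteinuria and glomerular scarring in susceptible mice, of which BALB/c is the classical strain.

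Chromatin immunoprecipitation followed by sequencing was used to map WT1: in this assay fragments bound by an antibody pile up over a binding site and the pile is called as a peak. The rule used 4 of the 5 groups. Isolated glomeruli of BALB/cJ mice given phosphate-buffered saline (PBS, 4 libraries) or ADR (4 libraries, no day given) formed the first model. Purified podocytes of mTmG reporter mice given PBS (3 libraries) or taken at day 9 after ADR (2 libraries) formed the second, and podocytes at day 14 after ADR (2 libraries) made the remaining group. All mice were 7 to 8 weeks old and are labelled wildtype, and the reporter strain carries a Cre that marks podocytes. Strain, cell preparation and possibly time after injury differ together between the models, and whole glomeruli also hold endothelial, mesangial and parietal cells.

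The authors deposited 1 pooled list per group, so no value below has a replicate error and no test between groups was possible. Intervals are 95% Wilson intervals over regions, which cover counting error only and not the variation between animals. The injured glomeruli had 16634 peaks against 29082 in their PBS controls, and the podocyte lists 31949 at day 9 and 6694 at day 14 against 23402 in theirs. A region without a peak is one where the caller's cutoff was not reached, not one shown to be free of WT1. Fold enrichment is the authors' value for a peak over its local background. With the background implied by the caller's values, a gained region of median enrichment corresponds to a scaled pileup of about 10.3 reads in ADR glomeruli and 16.8 reads at day 9. In bulk chromatin, fewer WT1-positive cells and less WT1 bound per cell cannot be told apart. The files and the gene table used here are of different genome builds, so regions are given by mm9 position and no gene or sequence was assigned to them.

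In the lists as deposited, the 820 regions were a larger part of the glomerular gains than of the podocyte gains. Both shares have the same numerator, so their order only restates which set of gains is smaller. Of the 41766 regions, 2770 (6.63%) had an ADR and no PBS peak in glomeruli and 11453 (27.4%) had a day 9 and no PBS peak in podocytes. Those gained in both models made up 29.6% (27.9 to 31.3) of the glomerular gains and 7.16% (6.70 to 7.65) of the day 9 gains. The opposite pattern, a peak in both PBS lists and in neither injured list, was found in 804 regions, and in 2778 or 446 with a −log10 q of at least 10 required in the injured lists or in all lists. Cutting the 4 lists to equal length left 775 gained regions, which were then 12.4% of the glomerular and 20.4% of the day 9 gains, so which share was the larger changed with the lengths of the lists. Only 311 of the 820 regions were among those 775.

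The crossing of the 2 models was read in regions with a peak in exactly 1 of the 2 glomerular lists. Where podocytes had gained the region at day 9, the glomerular peak was the ADR one in 820 of 3456 regions (23.7%, 22.3 to 25.2). Where podocytes had a peak in PBS and at day 9, it was the ADR one in 411 of 7394 (5.56%, 5.06 to 6.10). Where podocytes had a PBS peak and none at day 9, it was the ADR one in 130 of 934 (13.9%, 11.8 to 16.3). The rule used all 4 lists behind these shares and the 820 regions are the numerator of the first, so the shares describe the selection and nothing is read from their order. They also moved with the settings. With lists of equal length they were 55.2, 20.6 and 47.8%, so that the ADR peak became the more frequent glomerular peak among the day 9 gains. With a −log10 q of at least 10 required in the injured lists they were 7.71, 0.576 and 0.927%, and the intervals of the last 2 (0.445 to 0.745 and 0.634 to 1.36) overlapped.

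**Figure D1:**
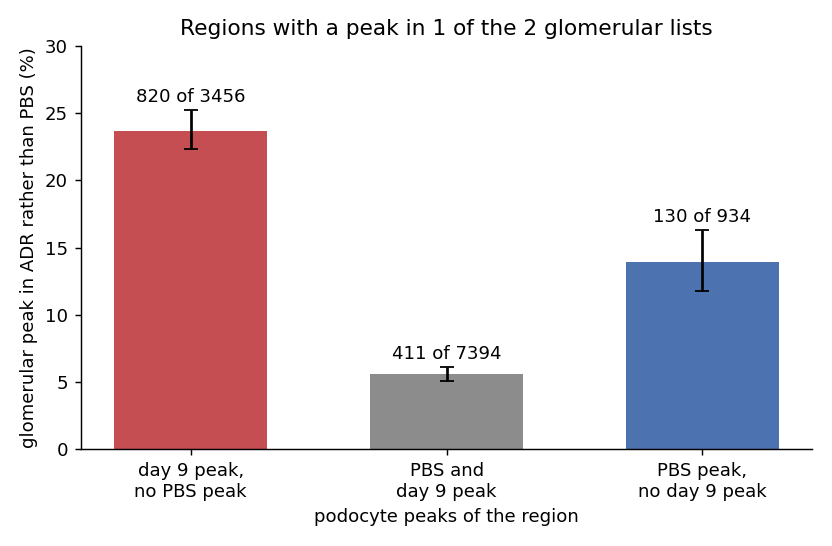
Share of regions whose only glomerular peak was in ADR rather than PBS glomeruli, by the podocyte peaks of the region. Bars start at 0, error bars are 95% Wilson intervals and the counts stand above them; the bar at 23.7% holds the 820 gained regions, against 5.56% and 13.9% in the other classes.

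The gained regions were narrower and less enriched than regions present in all lists. Their median width was 416 bp, with 342 to 499 bp between the quartiles, and 815 of the 820 consisted of 1 peak from each injured list. The day 9 peak was the longer of the 2 in 709 regions, and in 521 it enclosed the whole ADR glomerular peak. The 4666 regions with a peak in all 5 lists were wider, with a median of 792 bp. Width spans all merged peaks of a region, so regions with peaks in more lists tend to be wider by construction. Regions with both injured peaks and a peak in 1 of the 2 PBS lists had a median of 462 bp.

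In ADR glomeruli the enrichment of the gained regions ran from 2.86-fold to 25.7-fold, with a median of 6.38-fold (95% interval of the median 6.21 to 6.50). The median of the whole ADR glomerular list was 7.26-fold, and 275 of the 820 regions lay above that list's median rank. At day 9 the enrichment ran from 2.38-fold to 50.2-fold, with a median of 5.90-fold (5.79 to 6.20), against 6.82-fold for the whole day 9 list, and 333 regions lay above the median rank. The gained regions thus sat below the middle of both lists, while regions in all 5 lists had medians of 11.1-fold in ADR glomeruli and 20.7-fold at day 9. That class was selected for a peak in every list, so its height is partly set by this requirement. Regions with both injured peaks and a peak in 1 of the 2 PBS lists had medians of 6.34-fold and 5.30-fold. Modest height was therefore not limited to the gained regions. Among other day 9 gains, those with no glomerular peak had a median of 5.28-fold at day 9. These heights depend on which peaks are admitted: the medians of the gained regions were 6.91-fold in ADR glomeruli and 9.50-fold at day 9 with lists of equal length, and 10.3-fold and 8.27-fold with the −log10 q minimum in the injured lists.

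A strong peak in one model did not imply a strong one in the other. Across the 820 regions the enrichments in the 2 lists were weakly related (Spearman's rho 0.224, Pearson's r of the log2 values 0.232, given as a description because the regions share their libraries). In the 4666 regions present in all lists rho was 0.127. In the 1570 regions with both injured peaks and a peak in 1 of the 2 PBS lists it was 0.220, close to the gained regions. Above the median lay 275 gained regions in ADR glomeruli, 333 at day 9 and 147 in both lists. The top 10% held 14 in ADR glomeruli, 15 at day 9 and 1 in both, and 22 were in the top 25% of both. The numbers expected from unrelated ranks were not computed.

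**Figure D2:**
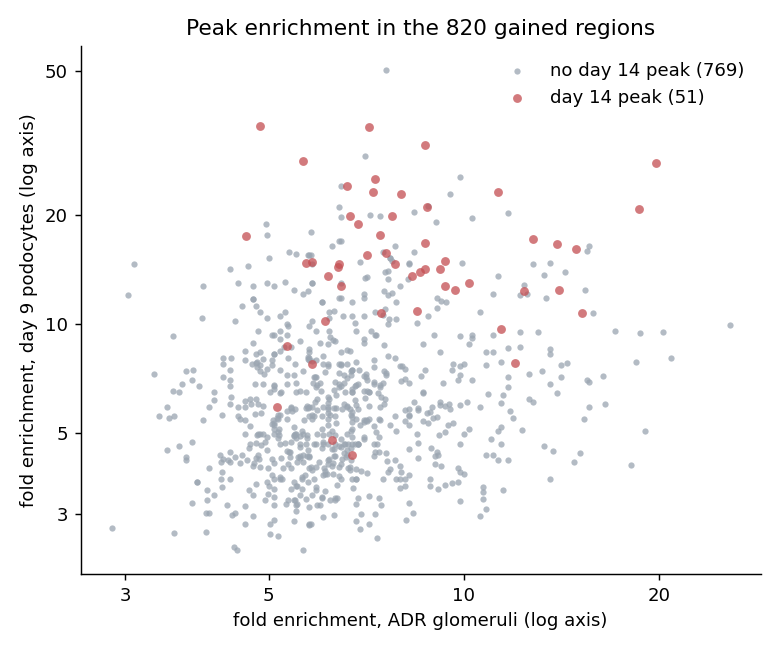
Fold enrichment of each of the 820 gained regions in ADR glomeruli (horizontal, log axis) and in day 9 podocytes (vertical, log axis), with the 51 regions that had a day 14 peak in red. The cloud is broad with little slope, and the red points gather in its upper part, with a median of 14.7-fold at day 9.

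The region that was strong in both models lay on chromosome 9 (73800062 to 73800581), with 19.8-fold enrichment in ADR glomeruli and 27.8-fold at day 9. Its summits in the 2 lists lay 9 bp apart, and the nearest PBS peak of either model was 45878 bp away. It also had an 8.30-fold peak at day 14. This was the region in the top 10% of both lists.

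A further 9 regions followed when ranked by the lower of their 2 percentiles. On chromosome 7, a region at 116690100 to 116690657 had 18.6-fold and 20.7-fold enrichment in ADR glomeruli and at day 9, and a region at 119433501 to 119434081 had 14.9-fold and 16.1-fold. On chromosome 15, a region at 97145609 to 97146212 had 13.9-fold and 16.6-fold, and on chromosome 2 a region at 6300859 to 6301424 had 12.8-fold and 17.2-fold. All 4 had a day 14 peak, of 5.48-fold, 3.62-fold, 7.43-fold and 4.78-fold in the order given. The other 5 had no day 14 peak. They lay on chromosome 14 (45625297 to 45625942, 15.6-fold in ADR glomeruli and 16.4-fold at day 9, and 120723401 to 120723898), chromosome 3 (90391621 to 90392215), chromosome 8 (24158734 to 24159217) and chromosome 15 (58348908 to 58349465). Summits in these 10 regions lay 2 to 47 bp apart between the models, so the glomerular and the podocyte peak had nearly the same centre in each.

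The extremes of each list belonged to different regions. The highest ADR glomerular enrichment, 25.7-fold, was at 52065363 to 52065864 on chromosome 13, where the day 9 peak had 9.97-fold. The highest day 9 enrichment, 50.2-fold, was at 117260132 to 117260913 on chromosome 7, where ADR glomeruli had 7.59-fold. Neither had a day 14 peak, and these 2 were picked out after their values were seen.

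Day 14 was the one list that the rule left free. Of the 820 gained regions, 51 (6.22%, 4.76 to 8.09) had a day 14 peak, against 6565 of all 41766 regions (15.7%). Of those 6565 regions, 4666 had a peak in all 5 lists, so the nearer comparison was with other regions gained at day 9. Of the day 9 gains with no glomerular peak, 100 of 6838 (1.46%, 1.20 to 1.78) had a day 14 peak. Of those with a PBS glomerular peak alone, 44 of 2636 did (1.67%, 1.25 to 2.23), and of those with peaks in both glomerular lists 50 of 1159 (4.31%, 3.29 to 5.64). The 2 classes with an ADR glomerular peak thus had the higher day 14 shares. Of the 1409 regions gained in ADR glomeruli with no podocyte peak in PBS or at day 9, 0 had a day 14 peak, which allows a share of up to 0.213% (3 counts of the total; the Wilson upper bound is 0.272%). Day 14 peaks without a day 9 peak were rare everywhere. They were found alone in 12 regions, and in at most 3 regions of any other pattern without a day 9 peak. The 0 is thus nearly set by how the class was chosen, and nothing is read from it.

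Within each class the day 14 share was highest among the most enriched day 9 peaks. Height at day 9 was therefore taken into account with 4 bins of day 9 enrichment, bounded by the quartiles of the gained regions. Up to 8.57-fold, day 14 peaks were rare in every class, with 5 in the gained regions of the 3 lower bins together. Above 8.57-fold, 46 of 205 gained regions had a day 14 peak (22.4%, 17.3 to 28.6). In the same bin the shares were 18.0% (13.7 to 23.3) with both glomerular peaks, 9.51% (7.55 to 11.9) with no glomerular peak and 6.94% (4.96 to 9.63) with a PBS glomerular peak alone. Median day 9 enrichment within that bin was still unequal, at 12.4-fold in the gained regions, 11.6-fold, 10.2-fold and 10.5-fold in the classes just listed.

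A finer division brought the median day 9 enrichments of the classes closer together. Above 12.4-fold, 38 of 102 gained regions (37.3%, 28.5 to 46.9) and 29 of 154 day 9 gains with no glomerular peak (18.8%, 13.4 to 25.7) had a day 14 peak, at medians of 15.5-fold and 14.6-fold. Between 8.57-fold and 12.4-fold the shares were 7.77% (3.99 to 14.6) and 6.85% (5.01 to 9.30), with intervals that overlapped. The difference in day 14 share between the 2 classes, averaged over the 4 bins, was 3.41 percentage points (1.79 to 5.04), and 2.58 points (0.919 to 4.24) over 8 bins, a division added after the data were seen. The difference was therefore seen among the most enriched regions, and regions with both glomerular peaks, 30.7% of which (22.5 to 40.3) had a day 14 peak above 12.4-fold, overlapped with the gained regions in their interval. Day 9 and day 14 were both compared with the same PBS podocytes.

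**Figure D3:**
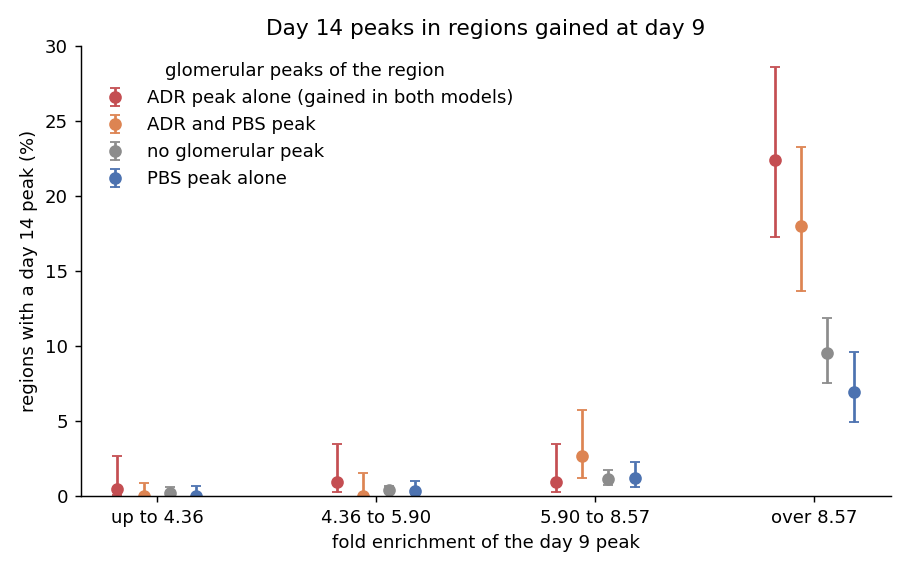
Share of regions gained at day 9 that had a day 14 peak, by bin of day 9 enrichment and by the glomerular peaks of the region, with 95% Wilson intervals. In the top bin the gained regions reach 22.4% and regions with both glomerular peaks 18.0%, above 9.51% and 6.94% in the others, while all classes stay near 0 in the lower bins.

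Among the gained regions, the day 14 share also followed the glomerular height. It was 1.94% (4 of 206 regions) in the lowest quartile of ADR glomerular enrichment, 3.43% in the next, 7.80% in the one above it and 11.7% (24 of 205, 7.99 to 16.8) in the highest. Median day 9 enrichment in these quartiles was 5.55-fold, 5.17-fold, 6.55-fold and 7.00-fold, so that height at day 9 moved with it in part. Its part in the trend was not tested. The 51 regions with a day 14 peak had medians of 7.75-fold in ADR glomeruli and 14.7-fold at day 9, against 6.30-fold and 5.85-fold in the 769 without.

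The day 14 peaks themselves were of medium height for their list, from 3.44-fold to 12.3-fold with a median of 5.72-fold, while the whole day 14 list had a median of 6.27-fold. Their summits lay a median of 27 bp from the day 9 summit and 36 bp from the ADR glomerular summit. The strongest was at 135205225 to 135205721 on chromosome 3, with 7.99-fold enrichment in ADR glomeruli, 22.9-fold at day 9 and 12.3-fold at day 14. Next came 102669954 to 102670537 on chromosome 15, with 8.72-fold, 31.1-fold and 12.1-fold in the same order. Both were only of moderate height in glomeruli, and their folds were higher at day 9.

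The chromosome 9 region named above came after these 2 at day 14. It was followed by 10446491 to 10447027 on chromosome 3 (6.39-fold in ADR glomeruli, 14.4-fold at day 9, 8.12-fold at day 14) and 4992475 to 4993264 on chromosome 19 (7.59-fold, 15.7-fold, 8.08-fold). A region on chromosome 1 (90559255 to 90559800) had 7.59-fold at day 14, that on chromosome 15 at 97145609 had 7.43-fold, and regions on chromosomes 10 (88770299 to 88770720) and 9 (50823841 to 50824338) had 7.36-fold each. The last of the 10 was at 117628340 to 117629152 on chromosome 12, with 7.12-fold. In all 10 regions the day 14 enrichment was below that at day 9, although fold values of different lists are not on a common scale.

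The summits of the 2 models lay close together within the gained regions. The rule did not use the summits, but it required peaks to meet, which limits how far summits can part. Median peak length was 251 bp in ADR glomeruli and 388 bp at day 9. No distance expected from overlap alone was computed. The summits lay a median of 33 bp apart, and within 100 bp of each other in 735 of 820 regions (89.6%, 87.4 to 91.5). Regions that failed the rule through a peak in 1 of the 2 PBS lists had a median of 34 bp and 85.4% (83.6 to 87.1) within 100 bp. Regions in all 5 lists had a median of 21 bp and 91.7% (90.9 to 92.5). Close summits were therefore not limited to the gained regions, and narrower regions leave less room for summits to part: median widths were 416, 462 and 792 bp in the 3 classes.

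**Figure D4:**
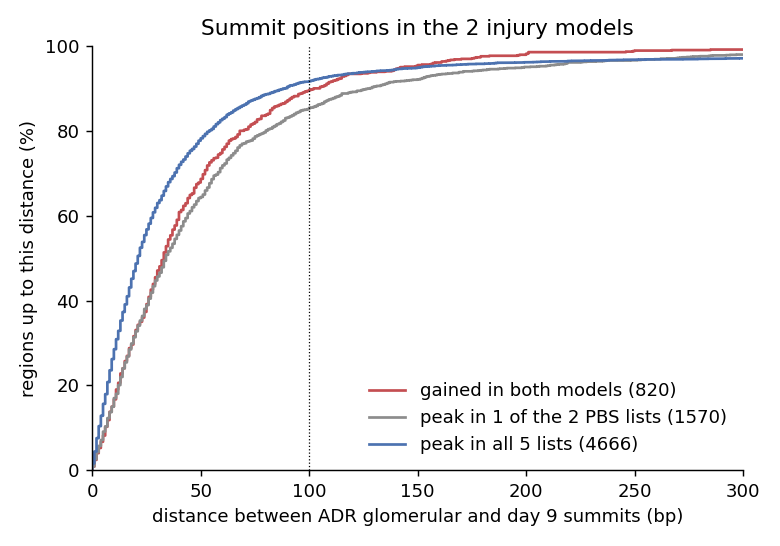
Cumulative share of regions by the distance in bp between the ADR glomerular and the day 9 summit, for gained regions, regions with a peak in 1 of the 2 PBS lists and regions in all 5 lists. The dotted line marks 100 bp, reached by 89.6% of gained regions, 85.4% and 91.7% of the others.

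Gained regions lay at varied distances from the peaks of uninjured tissue, and some lay at their edge. The median distance to the nearest PBS peak of either model was 8475 bp. The rule already excluded contact with a PBS peak, and this distance was not computed for other classes. A PBS peak lay within 1000 bp of 132 regions (16.1%) and within 500 bp of 63, while 127 regions (15.5%) were over 50 kb and 51 over 100 kb from any. A region found in all 5 lists lay within 10 kb of 160 gained regions (19.5%, 16.9 to 22.4). The share was 18.1% (17.2 to 19.0) for day 9 gains with no glomerular peak and 13.3% (11.6 to 15.1) for glomerular gains with no podocyte peak. For all other regions outside the common set it was 16.5% (16.1 to 16.8). In the lists as deposited, the gained regions thus stood about as close to common sites as the podocyte gains did. The interval for glomerular gains alone lay below both. The gained share fell to 14.2% (11.8 to 17.1) with no PBS peak within 1000 bp. It was 13.6% (10.5 to 17.4) with a −log10 q of at least 10 in all lists. The other classes were not recomputed, so this order may depend on the setting.

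Most gained regions had no other gained region within 10 kb. Their nearest gained neighbour was a median of 423205 bp away. It lay within 10 kb in 66 of the 820 (8.05%) and within 100 kb in 204 (24.9%). No spacing expected from random placement was computed, so these counts do not show whether gained regions cluster. Of the windows of 100 kb with a gained region, 678 held 1, 57 held 2, 8 held 3 and 1 held 4. The window with 4 was at 167700001 to 167800000 on chromosome 2, which held 13 peaks at day 9 against 5 in PBS podocytes, and 8 in ADR against 7 in PBS glomeruli. Its 4 gained regions were of low to medium height, 4.31-fold to 7.36-fold in ADR glomeruli and 3.18-fold to 6.47-fold at day 9.

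A single window among those with most gained regions had peaks in injured tissue alone. At 24100001 to 24200000 on chromosome 8 all 3 regions were gained, and the PBS lists had 0 peaks in the window. A region at 24148761 to 24149355 ranked at percentile 87.0 of the ADR glomerular list, with 12.4-fold enrichment at day 9 and 5.88-fold at day 14. Its neighbour at 24158734 to 24159217 had 12.8-fold and 14.6-fold, and a weaker one at 24165621 to 24165877 had 5.46-fold and 5.19-fold, both without a day 14 peak. The nearest PBS peak was 45473 bp or more from each of the 3. Other windows with 3 gained regions lay on chromosome 7 (96900001 to 97000000, 9 peaks at day 9 and 1 in each PBS list), chromosome 15 (77600001 to 77700000) and chromosome 10 (80200001 to 80300000).

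Chromosomes contributed unequally. Gained regions were 1.96% of all merged regions, from 0.964% (8 of 830, 0.489 to 1.89) on the X chromosome to 2.87% (41 of 1428, 2.12 to 3.87) on chromosome 19. Chromosomes 17 (1.27%, 0.853 to 1.88), 1 (1.41%, 1.04 to 1.93) and 11 (1.43%, 1.06 to 1.92) lay below the overall share with their intervals, as did the X chromosome, and chromosomes 19 and 10 (2.55%, 1.98 to 3.28) above it. The 26 regions on the Y chromosome and 6 on mitochondrial DNA held 0 gained regions. The other 14 autosomes had intervals that held 1.96%. Chromosome 11 had the most glomerular gains of any chromosome, 235, and the lowest share of them recurring at day 9, 18.3%, while chromosome 15 had 37.0% of its 127. On the X chromosome 8 of only 18 glomerular gains recurred (44.4%). With this many chromosomes some intervals miss the overall share by counting error alone.

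**Figure D5:**
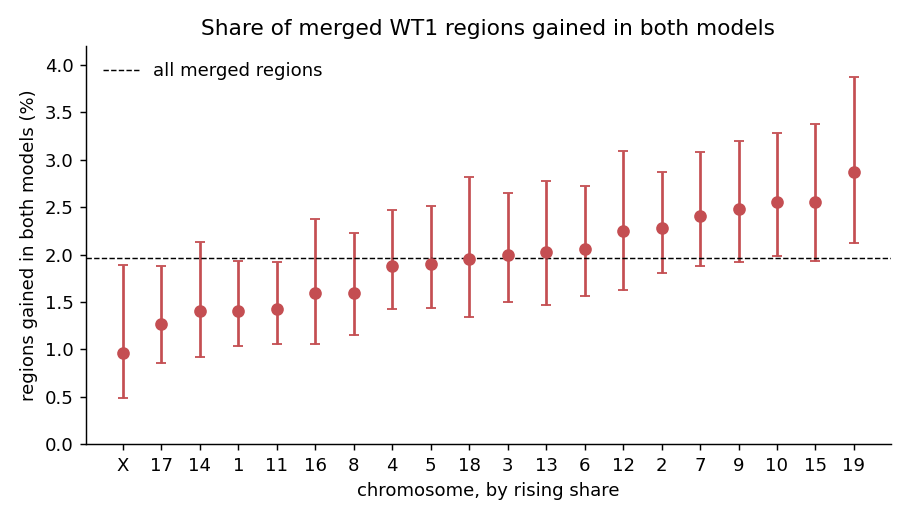
Gained regions as a percentage of all merged regions on each chromosome, ordered by that share, with 95% Wilson intervals and the overall 1.96% as a dashed line. Chromosome 19 is highest at 2.87% and the X chromosome lowest at 0.964%.

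Of the 5 widest gained regions, 4 lay above 13.6-fold at day 9, the level exceeded by the top 10% of gained regions, and their glomerular folds were more mixed. The widest, 1219 bp at 51729347 to 51730565 on chromosome 11, had 13.3-fold enrichment in ADR glomeruli and 13.7-fold at day 9. Those at 24318833 to 24320004 on chromosome 10 (1172 bp, 7.17-fold in ADR glomeruli and percentile 88.8 of the day 9 list), 55783485 to 55784474 on chromosome 18 (990 bp, 9.51-fold and 22.9-fold), 109627696 to 109628673 on chromosome 7 (978 bp) and 32366433 to 32367395 on chromosome 19 (963 bp, 6.06-fold and 8.16-fold) followed. That on chromosome 7 was unequal between the models, with 4.85-fold in ADR glomeruli and 35.1-fold at day 9, and it had a 5.79-fold day 14 peak.

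At the edge of the rule, membership turned on small distances and weak peaks. The smallest distance to a PBS peak was that of 91848955 to 91849509 on chromosome 2, a gained region of 9.12-fold enrichment in ADR glomeruli and 4.36-fold at day 9 that lay 47 bp from a 3.46-fold PBS glomerular peak. The next 4, on chromosomes 11, 10, 13 and 15, lay 59, 79, 79 and 80 bp from a PBS peak, and that on chromosome 11 (97302395 to 97302702, 5.09-fold and 3.51-fold) adjoined a strong PBS podocyte peak of 21.3-fold. Just outside the rule, 1556 regions had peaks in both injured lists and a lone PBS peak, found in PBS glomeruli in 1151 and in PBS podocytes in 405. The lone peak had a −log10 q under 3 in 57 of them and under 10 in 819. The weakest such peaks, all in PBS glomeruli with a −log10 q of 1.75 to 1.94, were on chromosomes 14 (27489104 to 27489420 and 26346795 to 26347215), 4 (147513989 to 147514574), 1 (39252884 to 39253277) and 16 (34352790 to 34353224). The region at 26346795 on chromosome 14 had 12.9-fold enrichment in ADR glomeruli and 6.97-fold at day 9 against 2.75-fold in PBS glomeruli.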

How the data were processed

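WT1 immunoprecipitations (antibody sc-192) of 15 samples in 5 groups were represented by 5 peak lists, and 2 glomerular inputs had no list of their own. Per the submitters' processing notes, Bowtie 0.12.7, MACS2 and mm9 were used. The sources used here do not say how libraries were pooled, nor give the control and the cutoff. Each peak's fold enrichment (a ratio), −log10 p and −log10 q (p-value and q-value of the caller) are the authors' deposited values. The deposited whole-number score entered no result. The smallest −log10 q was 1.31 to 1.52 in 4 lists and 2.25 at day 14.

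Peaks were merged where they overlapped or touched, and a region's value in a list is that of its most enriched peak. Coordinates are 1-based. Percentiles are ranks of fold enrichment within a list. The background of a list was the value that recurred most among its 60 most enriched peaks (26 to 52 of them) when both its fold and its Poisson p were explained by a whole-number pileup, with 1 added to pileup and background. This form is inferred. Day 14 shares were averaged over 4 bins with equal weight, with a normal interval. Medians carry exact order-statistic intervals. Merging, presence, summit and distance counts were tested on 41766 simulated regions, and 4 of 4 quantities were recovered.

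Named were the 10 regions highest by the lower percentile, the 10 most enriched day 14 peaks, the 5 widest, the 5 on each side of the rule's edge and up to 5 windows. The rule, comparisons and alternatives were written with earlier results of these data known. Because the genes in hand carry GRCm38 positions, gene location, gene lists and WT1 motifs were not run. Tables were handled in pandas 2.3.3 and numpy 2.4.6 under Python 3.11.15, intervals came from scipy 1.17.1 and plots from matplotlib 3.10.9. The promoter driving the Cre is not reported here.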

Additional observations from a re-analysis of the deposited data

How the results depend on the processing

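The number of gained regions was 820, and 688 to 821 with direct overlap, merging over 500 bp, no PBS peak within 1000 bp or lists of equal length. It fell to 157 with a −log10 q of at least 10 required in the 2 injured lists, and to 375 with that minimum in all lists, of which 157 were among the 820. The day 14 share rose from 6.22% to 16.6% with the minimum in the injured lists and to 13.3% with equal lengths, and was 5.87% with the minimum in all lists. In day 9 gains with no glomerular peak it went from 1.46% to 4.02%, 7.93% and 0.859% in the same order. The difference in day 14 share within bins rose from 3.41 points to 9.59 and 5.13 points under the same 2 settings, and was 2.19 points (0.407 to 3.96) in bins of −log10 p. Summits within 100 bp made up 94.9% with either minimum, against 89.6%, and 68.7% and 98.2% lay within 50 and 200 bp. The share near a common region was 14.2% with no PBS peak within 1000 bp and 13.6% with the minimum in all lists, against 19.5%, and 12.7% and 43.7% at 5 and 50 kb. Longer distances raise these shares by construction. The 1000 bp setting also removes gained regions beside common ones, since every common region holds PBS peaks. Otherwise the cause was not tested. Of 74 values under alternatives, 34 stayed within the 95% interval of the main value, or for counts within a fixed factor of it, and 40 moved. Those that moved include the shares at other distances. With equal lengths, the order of the 2 recurrence shares turned, from 29.6% of glomerular and 7.16% of day 9 gains to 12.4% and 20.4%. The 2 shares have the same numerator, so this order only follows which set of gains is smaller.

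No paired analysis was possible because the replicates of a group had been pooled into 1 list. Leaving out single replicates was not run either. Depth per library is not known from the peak lists, so a weak PBS peak below the cutoff cannot be told apart from none. The WT1 motif and promoter alternatives were not run, since no mm9 sequence or annotation was used here.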
